A study of Mus musculus with 18 samples.

Results

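The genes described here encode the machinery that builds and gates the primary cilium, and they were followed in cultured mouse cells of 2 genotypes under flow. The set was listed by gene name, at a time when earlier results of these data were known. It held 49 genes of the intraflagellar transport (IFT) complexes IFT-B and IFT-A, their motors, the BBSome, ciliary membrane GTPases and the transition zone. Of the 21647 genes listed in the count table, 48 belonged to the set, and 47 had enough reads to test. Kif17, a kinesin motor, stayed below the filter with 0 to 0.517 CPM (read counts scaled by library size) in every library. Tctn2 was not among the genes listed in the count table, and only its promoter was searched.

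A cilium has no ribosomes, so its proteins are made in the cell body and carried in. IFT-B trains, pulled by kinesin-II, move cargo to the tip, and IFT-A trains, pulled by dynein-2, bring it back. The BBSome, an adaptor recruited by the GTPase Arl6, loads membrane proteins for exit. Entry and exit pass the transition zone, a gate at the cilium base made of MKS and NPHP module proteins. Ift88, also named Tg737, is an IFT-B core subunit, and on endothelial cells the cilium is known as a structure that bends under flow.

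Cells were embryonic aortic endothelial cells by their label, wild type (WT) or Tg737orpk/orpk (orpk below), the latter with an insertion mutation in Ift88. All cells grew on gelatin in medium with 2% fetal bovine serum, were starved of serum for 24 h, and then had laminar shear of 2 or 30 dyn/cm2 for 48 h or were kept static. Each of the 6 groups (WT static, WT at 2, WT at 30, orpk static, orpk at 2, orpk at 30) held 3 libraries of poly(A) RNA. No animal, litter or isolation is named in the labels, so whether a genotype was represented by more than 1 culture is not given. The p-values therefore set a difference against the scatter of these libraries, part or all of which may be technical.

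Library totals ran from 13626480 to 17387553 counts, and the first principal component, with 90.1% of the variance, separated the genotypes. WT replicate 1 and orpk replicate 2 at 2 dyn/cm2 stood apart from their groups. The labelled cell type was not borne out by its defining markers in WT cells, and only in part in orpk ones. Cdh5, Erg and Tie1 had 0 reads in all 9 WT libraries. The 15 endothelial markers had sums of 29.0 to 57.0 CPM in WT libraries and of 93.9 to 149.6 CPM in orpk ones. In orpk Cdh5 and Erg stood at 0.397 to 1.47 and 0.599 to 1.81 CPM, and most of the sum was Flt1, a VEGF receptor (74.8 to 128 CPM). Egfl7, another marker of the list, stood at 8.44 to 11.4 CPM in WT and 1.71 to 4.83 CPM in orpk. Cldn5 and Robo4 had 0 reads in all orpk groups. At 2 dyn/cm2 Pecam1 and Nos3 had means of 0.145 and 0.125 CPM in orpk and 0.713 and 1.25 CPM in WT. Of the 15 markers, 6 to 8 had a mean of at least 1 CPM in the orpk groups and 4 or 5 in the WT groups. Epithelial and mesothelial markers (9 genes) had sums of 357 to 576 CPM in WT libraries and of 158 to 300 CPM in orpk ones. Of these, the keratin genes Krt8 and Krt18 stood at 133 to 205 and 147 to 197 CPM in WT, and at 0.129 to 1.36 and 0 to 0.293 CPM in orpk libraries. Not all of the list went this way: at 2 dyn/cm2 Krt19 stood at 16.4 to 18.8 CPM in WT and 47.6 to 58.8 CPM in orpk. Epcam, Krt7 and Cldn4 were higher in WT there. Most of the orpk sum at 2 dyn/cm2 (mean 166 CPM) came from the mesothelial genes Msln and Upk3b. In WT at 2 dyn/cm2 these had means of 40.1 and 1.70 CPM, so together they were lower than in orpk. Fibroblast markers (9 genes) had sums of 717 to 1160 CPM in WT libraries and of 26348 to 41604 CPM in orpk ones, and smooth muscle and pericyte markers (9 genes) of 56.1 to 138 and of 1897 to 4483 CPM. Genotype and cell makeup therefore cannot be told apart in any comparison of orpk with WT. In bulk RNA, fewer cells of a type and less RNA per cell cannot be told apart either.

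Promoter sequences are shown for the members on which the results turn, because their start regions differ in a short motif. RFX transcription factors bind the X-box, a motif found in promoters of many cilium genes, and its core site reads GTTGCC. RefSeq promoters (250 bases before to 50 after the start, build GRCm38.p6) were at hand for 44 of the 49 genes. GTTGCC stood on either strand in 22 of these 44 (50%), in 14.1% of 27025 genes of the table and in 14.9% of 10269 genes tested here. The longer spelling GTTGCCA was in 11 of 44 (25%) against 5.02% of all, and the paired spelling GTTNCCNNGGNAAC in 3 of 44 (6.82%) against 0.529%. GTTGCCA contains GTTGCC, and the paired spelling can overlap it. By complex, GTTGCC was in 8 of 12 transition zone, 5 of 10 IFT-B, 3 of 5 motor, 3 of 8 BBSome and 2 of 6 IFT-A promoters. In the 5 promoters printed next, capitals mark GTTGCC or its reverse complement GGCAAC. Ift88 (chr14:57423821-57424120, plus strand), Dync2h1 (chr9:7177009-7177308, minus strand) and Inpp5e (chr2:26409170-26409469, minus strand, the first of 2 starts) come first. Tmem231 (chr8:111933764-111934063, minus strand) and Tctn3 (chr19:40612182-40612481, minus strand), chosen after their values were seen, follow.
Ift88: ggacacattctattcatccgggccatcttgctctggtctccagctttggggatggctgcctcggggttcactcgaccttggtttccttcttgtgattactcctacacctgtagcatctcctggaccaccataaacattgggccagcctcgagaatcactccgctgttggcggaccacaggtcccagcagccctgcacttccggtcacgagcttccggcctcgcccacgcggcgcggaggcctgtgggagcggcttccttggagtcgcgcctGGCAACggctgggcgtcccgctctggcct
Dync2h1: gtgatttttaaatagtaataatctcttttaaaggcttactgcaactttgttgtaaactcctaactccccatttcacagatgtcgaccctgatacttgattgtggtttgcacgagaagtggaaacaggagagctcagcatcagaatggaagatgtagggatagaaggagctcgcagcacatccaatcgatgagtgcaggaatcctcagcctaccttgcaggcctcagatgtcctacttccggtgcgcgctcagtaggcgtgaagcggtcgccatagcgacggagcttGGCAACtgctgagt
Inpp5e: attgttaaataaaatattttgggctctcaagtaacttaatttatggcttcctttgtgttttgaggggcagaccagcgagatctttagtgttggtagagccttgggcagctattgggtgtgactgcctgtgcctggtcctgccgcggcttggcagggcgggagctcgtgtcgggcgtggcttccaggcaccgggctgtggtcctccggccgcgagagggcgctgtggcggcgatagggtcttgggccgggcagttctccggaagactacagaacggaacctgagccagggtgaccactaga
Tmem231: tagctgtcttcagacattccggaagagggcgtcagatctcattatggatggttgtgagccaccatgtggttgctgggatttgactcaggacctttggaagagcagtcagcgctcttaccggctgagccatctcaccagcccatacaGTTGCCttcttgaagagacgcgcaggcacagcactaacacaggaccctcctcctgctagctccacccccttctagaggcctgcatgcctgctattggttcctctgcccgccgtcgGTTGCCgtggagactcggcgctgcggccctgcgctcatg
Tctn3: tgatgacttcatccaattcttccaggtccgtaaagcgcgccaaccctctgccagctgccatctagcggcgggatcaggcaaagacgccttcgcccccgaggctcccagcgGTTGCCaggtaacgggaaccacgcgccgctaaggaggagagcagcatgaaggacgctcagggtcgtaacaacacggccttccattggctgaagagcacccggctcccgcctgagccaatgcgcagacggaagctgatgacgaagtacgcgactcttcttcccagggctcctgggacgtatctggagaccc
Ift88 and Dync2h1 each held 1 copy, Tmem231 held 2, Tctn3 held 1 and Inpp5e none. The paired spelling is shown, in capitals, with the bases around it for the 3 genes that hold it, at chr3:36613489-36613518, minus strand, at chr5:122264411-122264432, minus strand and at chr11:87853183-87853212, plus strand.
Bbs7: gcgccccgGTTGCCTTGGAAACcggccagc
Tctn1: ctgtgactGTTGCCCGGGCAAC
Mks1: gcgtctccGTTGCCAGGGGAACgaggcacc
A match is a description of these letters and says nothing of binding in these cells.

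The factors that bind or work with the X-box differed between the genotypes. Foxj1, the regulator of motile cilia, stood at 84.8 to 88.8 CPM in static WT and at 0.214 to 0.439 CPM in static orpk libraries (15 reads in all), a log2 fold change of -7.93 ± 0.12 (SE; edgeR, adjusted p = 2.4e-40). Rfx3, an RFX factor of ciliated cells, stood at 46.1 to 48.5 and at 10.6 to 12.5 CPM, a change of -2.03 ± 0.08 (adjusted p = 5.8e-25). Of a list of 20 motile cilium genes that includes Foxj1, 7 had a mean of at least 1 CPM in each WT group and 5 in each orpk group. Cfap43 of that list had means of 45.5 CPM in WT and 102 CPM in orpk at 2 dyn/cm2. Of the 7 tested genes of an 11-gene list of ciliogenesis factors, 0 were higher and 6 lower in static orpk, 1 and 6 at 2, and 0 and 7 at 30 dyn/cm2, where 43.4%, 42.9% and 42% of all tested genes were lower. The gene higher at 2 dyn/cm2 was Rfx5, by 0.15 ± 0.06, less than the shift of -0.20 that library totals as the scaling gave the median of all genes. Whether the ciliogenesis factors bear on the member levels was not tested. Member counts for orpk against WT are given further below, and their lean depended on the scaling.

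Across the 47 tested members, flow at 30 dyn/cm2 went with lower levels more often than with higher ones in both genotypes. In WT, 6 members rose and 22 fell from static to 30 dyn/cm2 (12.8% and 46.8%), where 34.1% and 32.7% of the 13058 tested genes did, and the median member changed by -0.13 on the log2 scale against 0.00 for all genes. In orpk, 11 rose and 25 fell (23.4% and 53.2%), against 36.5% and 33.3% of all genes, with a median of -0.18. With library totals as the scaling the WT split became 10 higher and 16 lower and the orpk split 10 and 25; DESeq2 gave 6 and 25 in orpk. From 2 to 30 dyn/cm2 in orpk, 7 members rose and 30 fell (14.9% and 63.8%), where 32.1% and 31.5% of all genes did, and library totals gave 2 and 35. These 2 orpk comparisons share the libraries at 30 dyn/cm2, so their counts are not separate evidence.

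The step from static to 2 dyn/cm2 had no such common direction. In WT, 9 members rose and 17 fell, against 32.6% and 30.3% of all genes, but library totals turned the split to 16 and 10, under which the median of all genes moved from 0.01 to 0.12. In orpk, 16 rose and 13 fell, against 30.9% and 31.1% of all genes, and 20 and 8 with library totals. From 2 to 30 dyn/cm2 in WT, 3 rose and 8 fell (15.9% and 17.2% of all genes), or 2 and 10 with library totals, and without WT replicate 1 at 30 dyn/cm2 the members called numbered 7. The summed level of the 48 genes was 1729 to 1751 CPM in static WT, 1588 to 1631 at 2 and 1558 to 1559 at 30 dyn/cm2; in orpk it was 1940 to 1957, 1878 to 1934 and 1658 to 1698 CPM.

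**Figure D1:**
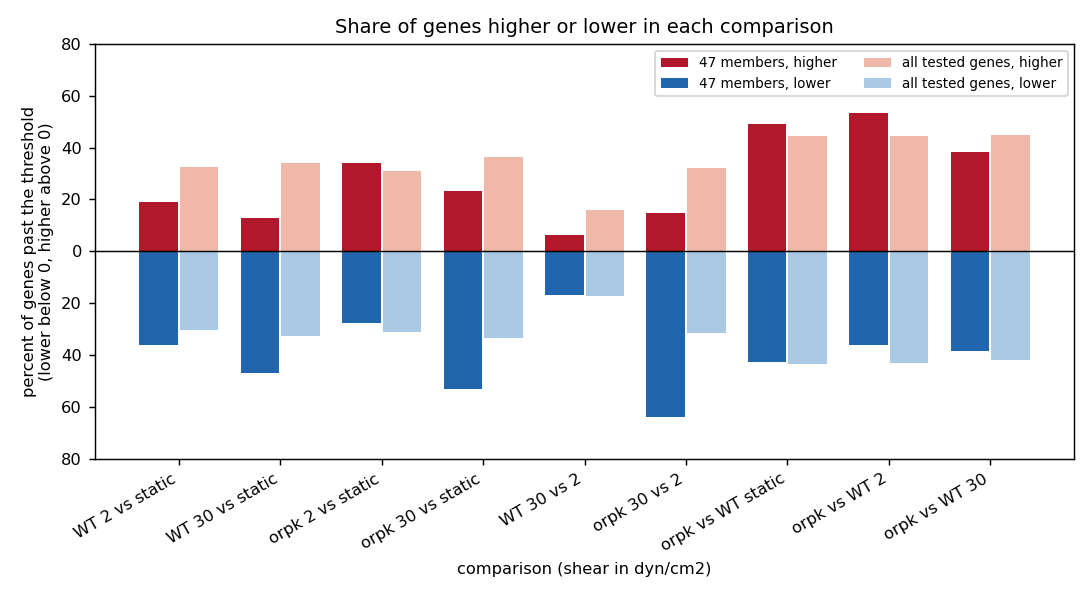
Percent of genes past the threshold in each comparison (x axis, shear in dyn/cm2), with genes that were higher drawn above 0 and genes that were lower drawn below 0, for the 47 members (dark bars) and for all 13058 tested genes (light bars). The dark bars reach lowest in orpk from 2 to 30 dyn/cm2, where 63.8% of members and 31.5% of all genes were lower; with library totals as the scaling the WT bars for 2 dyn/cm2 against static turn to 16 higher and 10 lower.

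Most tested genes differed between orpk and WT libraries, and so did most members. In static culture 23 members were higher and 20 lower in orpk, where 44.4% and 43.4% of all genes were. At 2 dyn/cm2 these were 25 and 17 (44.6% and 42.9% of all genes), and at 30 dyn/cm2 18 and 18 (44.9% and 42% of all genes). Library totals gave 17 and 24, 18 and 22, and 14 and 29, with the median of all genes at -0.21, -0.20 and -0.28. The shares lie near the background and are read only gene by gene below. In all 3 genotype comparisons 14 members were higher and 13 lower in orpk, and 10 and 12 of them kept all 3 calls under every alternative tried. The share of all genes with the same call in all 3 was not counted, so these counts are no result about the set.

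**Figure D2:**
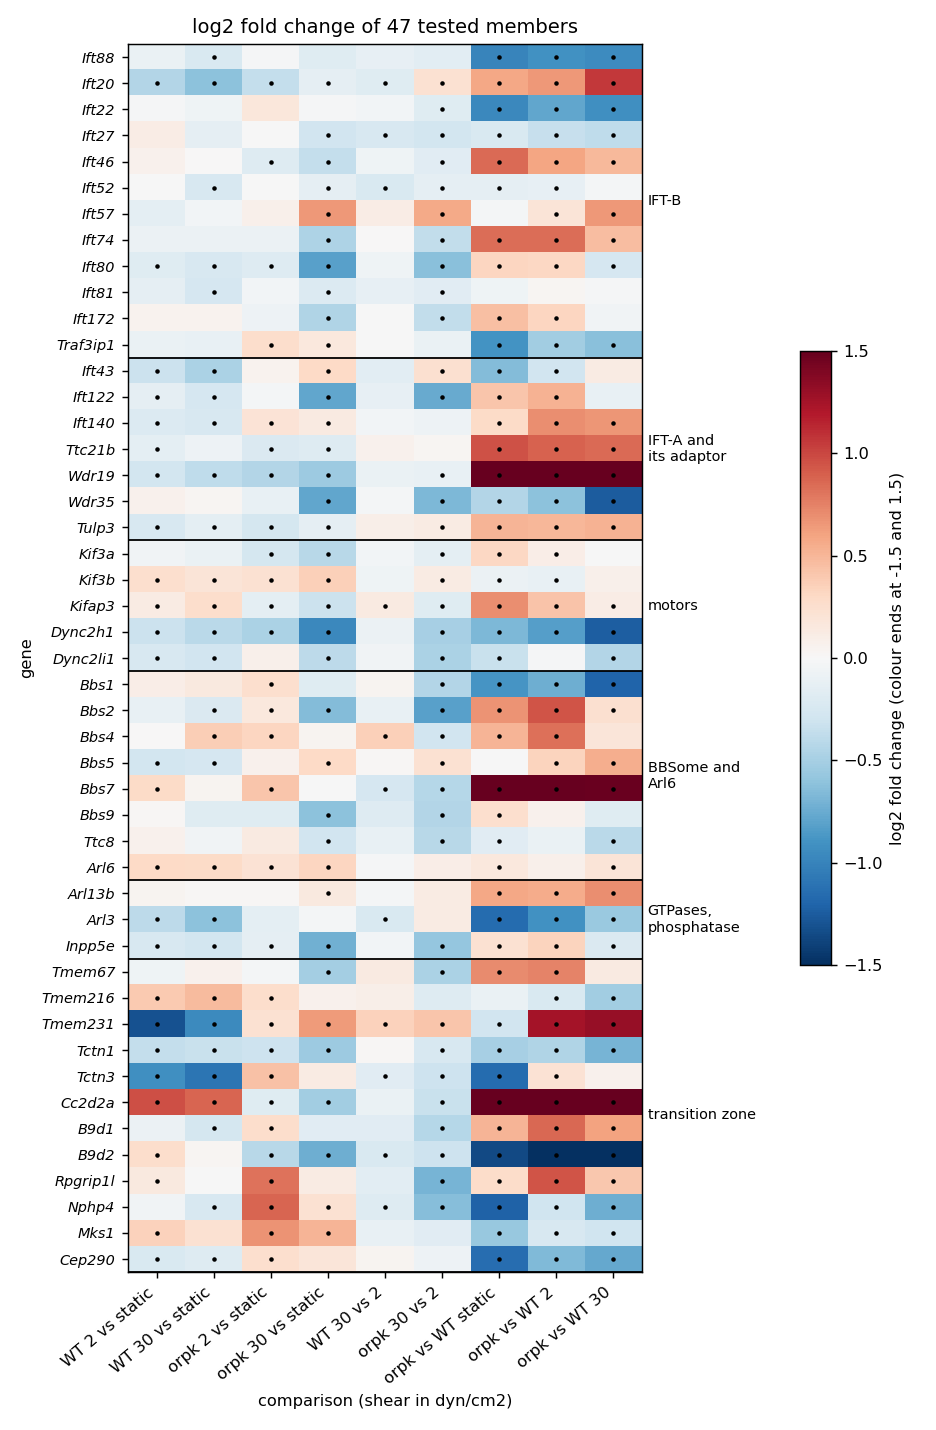
Log2 fold change of the 47 tested members (rows, grouped by complex) in 9 comparisons (columns, shear in dyn/cm2); red is higher and blue lower in the first-named group, colour ends at -1.5 and 1.5, and a black point marks an edgeR adjusted p below 0.05. Tmem231 and Tctn3 are blue for flow in WT and red at 2 dyn/cm2 in orpk, and Cc2d2a shows the opposite order; with library totals as the scaling, 13 genotype values that were called with either scaling change sign, each listed with its value in the closing section.

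Ift88 was set beside its 11 IFT-B partners first. Static WT libraries had 13.4, 17.4 and 15.98 CPM of Ift88, WT at 2 dyn/cm2 13.9, 15.5 and 14.2, and WT at 30 dyn/cm2 12.8, 13.3 and 13.9. The orpk libraries had 7.49, 8.46 and 7.47 CPM in static culture, 7.87, 7.16 and 8.17 at 2 and 6.37, 7.36 and 6.98 at 30 dyn/cm2. Every orpk library lay below every WT library, and within a genotype the shear groups lay close together or overlapped. The orpk minus WT difference was -0.99 ± 0.10, -0.91 ± 0.10 and -0.95 ± 0.11 (SE, log2) at static, 2 and 30 dyn/cm2, and in none of the 3 comparisons did any partner lie below Ift88. The partners had medians of -0.03, 0.19 and -0.02, with Ift22, a Rab-like subunit, nearest at -0.96 ± 0.07 in static culture. In each genotype comparison between 58.7% and 59.4% of tested genes differed by less than Ift88 did. Lack of overlap between compared groups was common: in orpk against WT in static culture it held for 11505 of 13058 tested genes. For 30 dyn/cm2 against static it held for 9288 genes in WT and 9568 in orpk, so by itself it sets no member apart.

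Per length, Ift88 was also the lowest of the IFT-B members in both genotypes. In CPM per kb of exons its median over 9 libraries was 3.01 in WT and 1.61 in orpk, with ranks of 40 and 44 among 48 members. The next lowest partner was Ift80 at 5.30 in WT and Ift81 at 5.60 in orpk, and the highest were Ift52 at 18.5 in WT and Ift20 at 32.1 in orpk. Subunits outside the set were not ranked, and some lay lower, such as Ttc30b with a mean of 1.63 in WT at 30 dyn/cm2. The exon length counts all annotated exons, and isoforms in use were not analysed here.

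**Figure D3:**
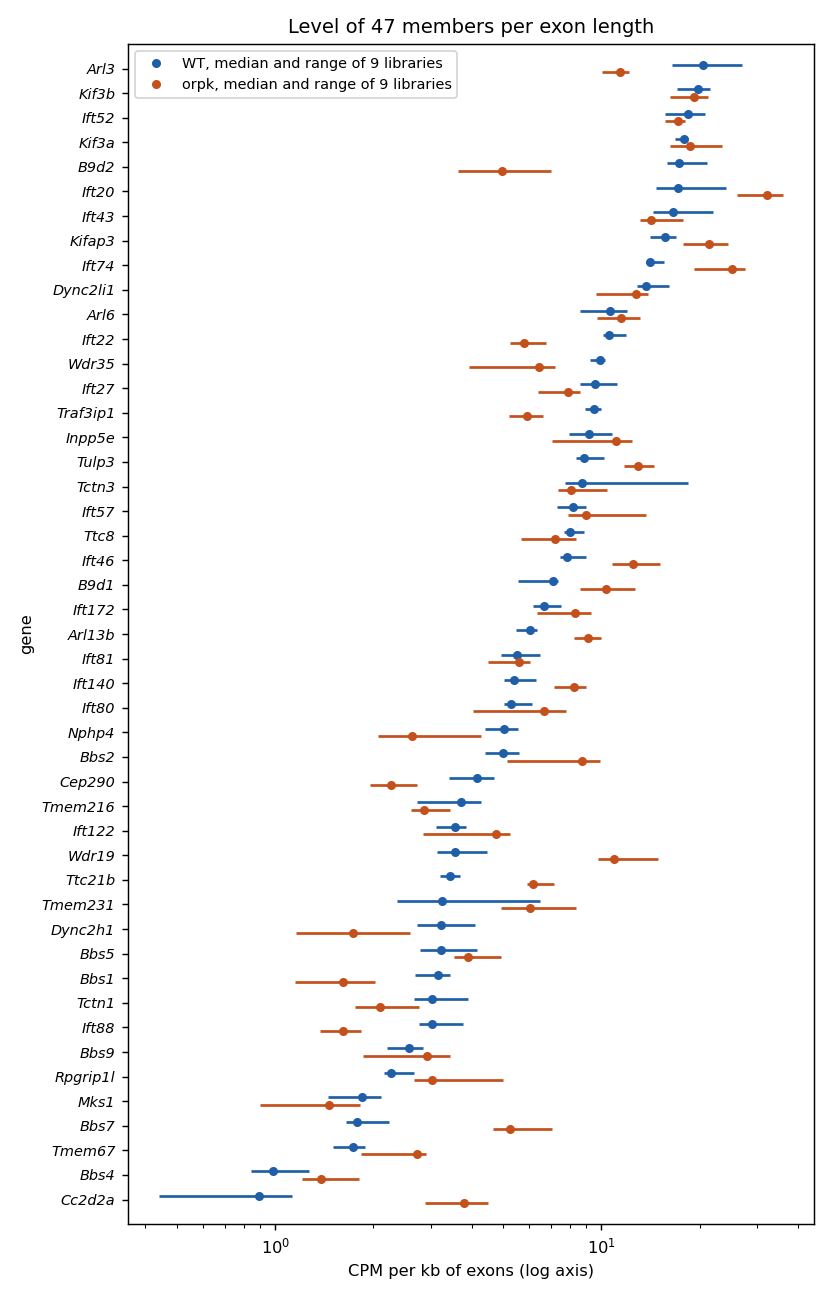
Level of 47 members in CPM per kb of exons (log axis), as the median (point) and the range (line) over 9 WT (blue) and 9 orpk (orange) libraries, ordered by the WT median; Kif17 is left out because some libraries had no reads. Ift88 lies near the bottom of both orders, at 3.01 in WT and 1.61 in orpk, while B9d2, Wdr19, Bbs7 and Cc2d2a change place between the genotypes.

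IFT-B subunits that passed the test under flow were lower in WT, and more were lower than higher in orpk. Against static, of 12 subunits, 0 rose and 2 fell at 2 dyn/cm2 in WT and 0 rose and 5 fell at 30 dyn/cm2, where 32.6% and 30.3%, then 34.1% and 32.7% of all tested genes did. In orpk 1 rose and 3 fell at 2 and 2 rose and 8 fell at 30 dyn/cm2, against 30.9% and 31.1%, then 36.5% and 33.3% of all genes. Ift88 itself changed by -0.22 ± 0.09 in WT at 30 dyn/cm2 (edgeR, adjusted p = 0.021), a call lost with library totals (-0.14) and when any of 4 libraries was left out (WT at 30 replicate 1 or 2, or static WT replicate 2 or 3). In orpk its change at 30 dyn/cm2 was -0.18 ± 0.12 (adjusted p = 0.19), and the interaction of genotype and shear was 0.04 ± 0.15 (adjusted p = 0.84).

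Ift20, the subunit also found at the Golgi, had the largest IFT-B change in WT. Its libraries held 36.8, 34.6 and 36.3 CPM in static WT, 28.0, 25.5 and 26.2 at 2 and 22.5, 24.9 and 23.0 CPM at 30 dyn/cm2. The static libraries lay above all sheared ones, with changes of -0.43 ± 0.06 at 2 and -0.61 ± 0.06 at 30 dyn/cm2 (edgeR, adjusted p = 5.9e-12). In orpk the libraries held 53.7, 52.4 and 55.0 CPM in static culture, 44.4, 39.6 and 41.5 at 2 and 47.6, 49.7 and 49.0 at 30 dyn/cm2. Ift20 was thus higher in every orpk library than in any WT library, by 1.06 ± 0.06 at 30 dyn/cm2, whereas Ift88 was lower.

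Ift57 and Ift80, both peripheral subunits, moved apart in orpk at 30 dyn/cm2. Ift57 held 23.3, 24.0 and 24.5 CPM in static orpk and 39.2, 37.4 and 35.8 CPM at 30 dyn/cm2, a rise of 0.65 ± 0.07 (edgeR, adjusted p = 2.7e-11). In WT the same step gave -0.04 ± 0.07, and the interaction was 0.69 ± 0.10 (adjusted p = 6.2e-08). Ift80 held 92.3, 93.9 and 96.5 CPM in static orpk and 54.2, 55.9 and 50.1 CPM at 30 dyn/cm2, a fall of -0.82 ± 0.05 (adjusted p = 2.7e-19). Neither pair of groups overlapped. Ift57 shares 7.86% of its exon length with an antisense gene, and whether counting used the strand is not given in the sources used here. Ift74 and Ift172, core and peripheral subunits, fell by 0.46 and 0.45 on the log2 scale in the same comparison.

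The other IFT-B subunits parted by genotype in both directions. Ift46 and Ift74, core subunits, were 0.85 ± 0.05 and 0.84 ± 0.05 higher in static orpk (edgeR, adjusted p = 3.8e-18 and 1.9e-19), and the difference shrank to 0.49 and 0.46 at 30 dyn/cm2, with interactions of -0.36 ± 0.08 and -0.38 ± 0.07. Traf3ip1, the IFT54 subunit that binds Ift20, lay on the side of Ift88, at -0.90 ± 0.06 in static culture and -0.62 ± 0.06 at 30 dyn/cm2. Ift27, a small GTPase of the core, differed by -0.22 to -0.38. Ift52 and Ift81, which form the central scaffold, lay within 0.14 of WT at every shear in the edgeR fit with TMM factors, and the Ift81 difference passed at none. With library totals both differed from WT by -0.34 at 30 dyn/cm2, and the calls for Ift52 in static culture and at 2 dyn/cm2 were lost with DESeq2. Within the complex, members of the core thus lay on both sides of WT.

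Most IFT-A genes were lower under flow in WT. At 2 dyn/cm2 0 rose and 6 of 7 fell and at 30 dyn/cm2 0 rose and 5 fell, with medians of -0.20 and -0.24, where 30.3% and 32.7% of all tested genes fell. With library totals 3 of the 6 calls at 2 dyn/cm2 (Ift122, Ift140 and Ttc21b) were lost. In orpk 1 rose and 3 fell at 2, and 2 rose and 5 fell at 30 dyn/cm2, against 30.9% and 31.1%, then 36.5% and 33.3% of all genes. Wdr19, the IFT144 subunit, held 50.3, 47.1 and 46.0 CPM in static WT, 37.4, 40.1 and 41.3 at 2 and 35.4, 35.8 and 39.1 at 30 dyn/cm2. Its orpk libraries held 161, 168 and 168 CPM in static culture, 128, 123 and 117 at 2 and 115, 110.2 and 117 at 30 dyn/cm2. Static libraries were above sheared ones in both genotypes, with changes at 30 dyn/cm2 of -0.38 ± 0.05 in WT and -0.54 ± 0.04 in orpk. The genotype difference was larger than either, at 1.79 ± 0.05 in static culture (edgeR, adjusted p = 6.5e-32) and 1.63 ± 0.05 at both shears.

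Wdr35 and Ift122, partners of Wdr19 in the complex, passed as lower in orpk at 30 dyn/cm2 and not at 2. Wdr35 held 49.9, 52.5 and 52.1 CPM in static orpk, 49.7, 46.8 and 46.8 at 2 and 28.5, 31.9 and 29.6 CPM at 30 dyn/cm2. Its libraries at 2 dyn/cm2 all lay below the static ones, though that change did not pass. The interaction at 2 dyn/cm2 passed but was lost in several fits with 1 library left out, such as -0.16 without orpk replicate 2 at 2 dyn/cm2. The change at 30 dyn/cm2 was -0.78 ± 0.06 (edgeR, adjusted p = 8.5e-16), against 0.03 ± 0.05 in WT, and the interaction was -0.81 ± 0.07 (adjusted p = 1.2e-12). Ift122 changed by -0.78 ± 0.06 in orpk and -0.25 ± 0.06 in WT, with an interaction of -0.53 ± 0.08 (adjusted p = 6.9e-07). Ift43, a small IFT-A subunit, turned the other way: it fell by 0.48 in WT and rose by 0.29 in orpk on the log2 scale, with an interaction of 0.77 ± 0.11 (adjusted p = 5.7e-08). Its WT libraries went from 34.8 to 36.4 CPM in static culture to 23.7 to 26.6 CPM at 30 dyn/cm2, and its orpk libraries from 21.7 to 23.4 to 24.9 to 29.3 CPM. Ttc21b, the IFT139 subunit, was 0.85 to 0.96 higher in orpk at each shear, and Ift140, of the core, 0.29 to 0.70 higher, its static difference being lost with library totals. Tulp3, the adaptor that hands membrane receptors to IFT-A, was 0.49 to 0.53 higher in orpk at each shear.

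The retrograde motor subunit and the anterograde motor subunits did not move alike. Dync2h1, the dynein-2 heavy chain, was lower under flow in all 4 comparisons with static. Its WT libraries held 66.8, 58.8 and 64.9 CPM in static culture, 44.5, 52.9 and 55.6 at 2 and 46.7, 48.7 and 48.2 CPM at 30 dyn/cm2. Its orpk libraries held 37.3, 42.2 and 39.7 CPM in static culture, 30.0, 28.4 and 27.9 at 2 and 19.9, 22.1 and 19.0 CPM at 30 dyn/cm2. Static libraries were above sheared ones without overlap in both genotypes, and the orpk libraries at 30 dyn/cm2 were the lowest. The changes were -0.32 ± 0.06 and -0.41 ± 0.06 in WT and -0.47 ± 0.07 and -0.97 ± 0.08 in orpk, at 2 and 30 dyn/cm2 (edgeR, adjusted p = 1.7e-13 for the last). The interaction at 30 dyn/cm2 was -0.56 ± 0.10 (adjusted p = 1.1e-05), and at 2 dyn/cm2 it was -0.15 ± 0.09 (adjusted p = 0.19).

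Kif3b, a kinesin-II motor subunit, was higher in all 4 comparisons with static. It held 96.3 to 102 CPM in static WT, 112 to 122 at 2 and 108 to 119 at 30 dyn/cm2, and in orpk 91.4 to 94.9, 108 to 110.4 and 118 to 120.4 CPM. The changes were small, from 0.19 to 0.36 on the log2 scale, and all 4 calls held under every alternative tried. Its partner Kif3a did not pass in WT and fell by 0.41 in orpk at 30 dyn/cm2, and Kifap3, the accessory subunit that links both to cargo, rose by 0.26 in WT and fell by 0.32 in orpk at 30 dyn/cm2 (interaction -0.59 ± 0.07; edgeR, adjusted p = 6.9e-10).

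Dync2li1, the light intermediate chain that partners Dync2h1, fell by 0.29 in WT and by 0.39 in orpk at 30 dyn/cm2. It fell by 0.23 in WT at 2 dyn/cm2, a call lost with library totals, and the orpk difference there was 0.08 ± 0.06 (edgeR, adjusted p = 0.26; called higher, at 0.18, with library totals). Its interaction at 2 dyn/cm2 was 0.32 ± 0.08 (adjusted p = 0.0014).

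In 3 members all 4 calls of a fall under flow held under every alternative: Dync2h1, Wdr19 and Tctn1, a tectonic of the transition zone. Ift20, Ift80, Inpp5e and Tulp3 were also lower in all 4 comparisons, but each lost 1 call or more with library totals or with 1 library left out. The share of all genes lower in all 4 was not counted, so whether the set stands out here is not known. Tctn1 shares 25.5% of its exon length and Inpp5e 20.3% with a gene on the other strand.

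Among the 8 genes of the BBSome and Arl6 in orpk, 5 rose and 0 fell at 2 dyn/cm2 against static, where 30.9% and 31.1% of all tested genes did. From 2 to 30 dyn/cm2 1 rose and 6 fell, against 32.1% and 31.5% of all genes, with a median of -0.42. Against static at 30 dyn/cm2 2 rose and 3 fell, near the 36.5% and 33.3% of all genes. The rises of Bbs1, Bbs2, Bbs4 and Arl6 at 2 dyn/cm2 (0.16 to 0.32) were each lost when 1 library was left out; that of Bbs7 was not. Bbs2, a core subunit, held 27.0, 29.8 and 28.8 CPM in static orpk, 30.7, 32.1 and 32.9 at 2 and 18.8, 18.7 and 17.0 CPM at 30 dyn/cm2. The libraries at 30 dyn/cm2 lay below all other orpk libraries and near the WT range of 14.6 to 18.5 CPM. Its change from 2 to 30 dyn/cm2 was -0.81 ± 0.07 (edgeR, adjusted p = 1.2e-13). In WT 2 rose and 1 fell at 2, and 2 rose and 2 fell at 30 dyn/cm2, where 32.6% and 30.3%, then 34.1% and 32.7% of all genes did.

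Bbs7, another core subunit, differed most by genotype. It held 8.88, 9.73 and 9.25 CPM in static WT and 25.5, 28.6 and 25.5 CPM in static orpk, a difference of 1.52 ± 0.08 (edgeR, adjusted p = 1.3e-20). At 2 dyn/cm2 the 3 WT libraries held 11.5, 10.5 and 11.99 CPM, and those of orpk had 38.1, 33.9 and 34.8 CPM, above static in both genotypes (0.29 ± 0.09 and 0.42 ± 0.06). At 30 dyn/cm2 it was back at 9.38 to 9.59 and 25.1 to 28.3 CPM. Bbs1 lay on the other side, with differences of -0.88, -0.73 and -1.21 between orpk and WT at static, 2 and 30 dyn/cm2. Bbs4 and Bbs5, peripheral subunits, were 0.83 and 0.34 higher in orpk at 2 dyn/cm2, the latter lost with library totals, and Ttc8, the BBS8 subunit, was 0.40 lower at 30 dyn/cm2. Bbs9, a scaffold of the core, fell by 0.62 in orpk at 30 dyn/cm2 and its difference in WT was -0.18 ± 0.09 (edgeR, adjusted p = 0.089), with an interaction of -0.44 ± 0.14 (adjusted p = 0.0054). Arl6, the GTPase that recruits the BBSome, rose by 0.29 in WT and by 0.32 in orpk at 30 dyn/cm2.

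Arl3, Arl13b and Inpp5e set the lipid and lipidated-protein content of the ciliary membrane. Arl3, which releases lipidated cargo inside the cilium, held 63.2, 63.4 and 67.0 CPM in static WT, 52.9, 51.1 and 43.6 at 2 and 43.4, 41.7 and 41.0 CPM at 30 dyn/cm2. In orpk it held 24.9 to 30.3 CPM over all 9 libraries. It fell in WT by 0.39 and 0.62 on the log2 scale (edgeR, adjusted p = 4.9e-13 at 30 dyn/cm2), did not pass in orpk (-0.15 and -0.03), and had interactions of 0.25 ± 0.09 and 0.60 ± 0.09 (adjusted p = 0.017 and 2.9e-07). The former was lost without WT replicate 3 at 2 dyn/cm2. Arl13b, the exchange factor of Arl3, was 0.55 to 0.70 higher in orpk at each shear. Inpp5e, the ciliary lipid phosphatase, fell by 0.28 in WT and 0.72 in orpk at 30 dyn/cm2.

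The transition zone held the members whose flow change differed most between the genotypes. Tmem231, a membrane protein of the MKS module, held 34.9, 32.7 and 32.9 CPM in static WT, 12.7, 14.2 and 13.8 at 2 and 17.4, 16.4 and 17.97 CPM at 30 dyn/cm2. In orpk it held 26.6, 26.4 and 29.6 CPM in static culture, 32.5, 32.6 and 31.7 at 2 and 43.6, 40.2 and 45.0 CPM at 30 dyn/cm2. Sheared libraries were below static ones in WT and above them in orpk, without overlap. The changes were -1.30 ± 0.07 and -0.95 ± 0.07 in WT (edgeR, adjusted p = 6.3e-20 and 2.2e-16) and 0.23 ± 0.06 and 0.64 ± 0.06 in orpk (adjusted p = 0.0015 and 3.1e-12). The interactions were 1.54 ± 0.09 and 1.60 ± 0.09, the largest among the members at either shear. The genotype difference turned from -0.29 ± 0.06 in static culture to 1.31 ± 0.06 at 30 dyn/cm2.

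Tctn3, a tectonic of the same module, shared the fall in WT. It held 55.3, 48.8 and 60.2 CPM in static WT, 28.1, 28.5 and 30.2 at 2 and 26.3, 25.2 and 25.6 CPM at 30 dyn/cm2, changes of -0.92 ± 0.06 and -1.09 ± 0.06 (edgeR, adjusted p = 2.1e-19 at 30 dyn/cm2). In orpk it held 24.5, 24.2 and 25.5 CPM in static culture, 33.4, 34.0 and 33.3 at 2 and 26.4, 25.9 and 28.8 CPM at 30 dyn/cm2. It rose by 0.44 ± 0.07 at 2 dyn/cm2 in orpk and its difference at 30 dyn/cm2 was 0.13 ± 0.07 (adjusted p = 0.11). The static WT libraries thus lay above the other 15, which ranged from 24.2 to 34.0 CPM. The interactions were 1.37 ± 0.09 and 1.22 ± 0.09 (adjusted p = 2.1e-16 and 1.6e-14).

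Cc2d2a, a scaffold that anchors the module at the cilium base, moved the opposite way. It held 3.003, 3.57 and 3.79 CPM in static WT, 6.68, 7.69 and 6.02 at 2 and 6.05, 6.27 and 6.67 CPM at 30 dyn/cm2. In orpk it held 30.6, 29.8 and 27.4 CPM in static culture, 25.8, 24.8 and 26.6 at 2 and 20.3, 21.2 and 19.6 CPM at 30 dyn/cm2. It rose in WT by 0.96 ± 0.13 and 0.87 ± 0.13 and fell in orpk at 30 dyn/cm2 by 0.52 ± 0.07 on the log2 scale (edgeR, adjusted p = 2.9e-08). The fall of 0.19 at 2 dyn/cm2 in orpk was lost with library totals (-0.08) and without orpk replicate 2 at 2 dyn/cm2 or static orpk replicate 1 or 2. The genotype difference, 3.08 ± 0.10 in static culture, was 1.93 ± 0.08 at 2 and 1.68 ± 0.09 at 30 dyn/cm2, and the interactions were -1.15 ± 0.15 and -1.39 ± 0.15.

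**Figure D4:**
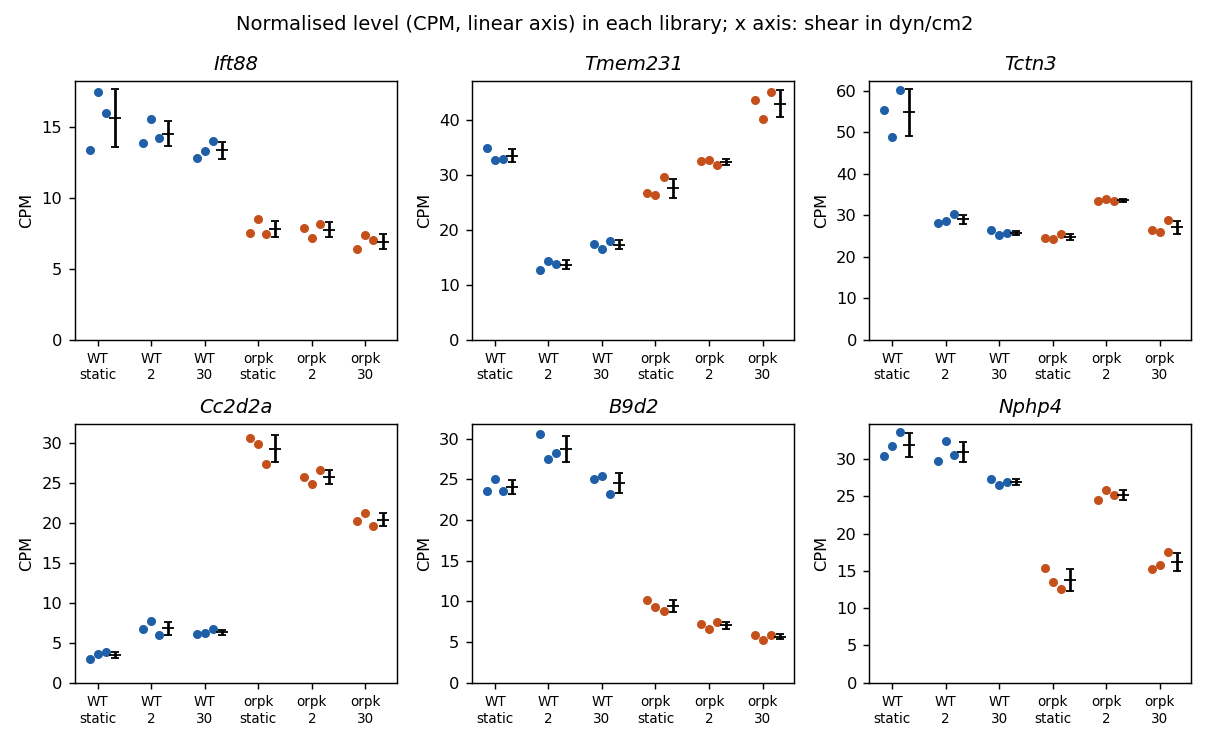
CPM (linear axis from 0) of Ift88 and 5 transition zone genes in each of 18 libraries, by genotype and shear in dyn/cm2; points are libraries in replicate order, blue for WT and orange for orpk, and the black mark with its bar is the mean and SD of the 3. Tmem231 drops from 32.7 or more to 17.97 or less under flow in WT and climbs to 40.2 or more at 30 dyn/cm2 in orpk, whereas Ift88 keeps its genotype gap at every shear.

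B9d2, which sits in a small complex with B9d1 and Mks1, was lower in orpk at every shear. It held 23.6, 25.1 and 23.6 CPM in static WT, 30.5, 27.5 and 28.2 at 2 and 25.1, 25.4 and 23.2 at 30 dyn/cm2. In orpk it held 10.2, 9.30 and 8.78 CPM in static culture, 7.21, 6.55 and 7.43 at 2 and 5.84, 5.29 and 5.89 at 30 dyn/cm2. The difference was -1.35 ± 0.08 in static culture and -2.11 ± 0.09 at 30 dyn/cm2 (edgeR, adjusted p = 5.5e-24), and the interactions were -0.68 ± 0.12 and -0.76 ± 0.13. Its partners went other ways, with B9d1 0.51 to 0.86 higher and Mks1 -0.57 to -0.24 in orpk. The Mks1 calls at 2 and 30 dyn/cm2 were lost with DESeq2.

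Nphp4 and Rpgrip1l, linked scaffolds of the NPHP module, rose at 2 dyn/cm2 in orpk and returned towards the static level at 30 dyn/cm2. Nphp4 held 15.3, 13.5 and 12.5 CPM in static orpk, 24.5, 25.9 and 25.2 at 2 and 15.2, 15.9 and 17.5 at 30 dyn/cm2, and 26.6 to 33.6 CPM over the 9 WT libraries. Rpgrip1l held 39.1, 39.8 and 41.2 CPM in static orpk, 73.5, 70.1 and 66.9 at 2 and 40.9, 44.3 and 45.0 at 30 dyn/cm2, and 31.6 to 39.2 CPM over the WT libraries. In both genes the orpk libraries at 2 dyn/cm2 stood above all other orpk libraries. The rises were 0.87 ± 0.08 and 0.81 ± 0.06 (edgeR, adjusted p = 3.6e-13 and 8.2e-16), with interactions of 0.92 ± 0.10 and 0.66 ± 0.09. In all, 8 of 12 transition zone genes rose and 3 fell at 2 dyn/cm2 in orpk (30.9% and 31.1% of all tested genes), and 1 rose and 8 fell from 2 to 30 dyn/cm2 (32.1% and 31.5% of all).

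Of the remaining transition zone genes, Cep290, a linker between microtubules and membrane, lay lower in orpk by -1.14 ± 0.07, -0.66 ± 0.07 and -0.77 ± 0.07 at static, 2 and 30 dyn/cm2 (edgeR, adjusted p = 6.7e-17 in static culture). Tmem67, a receptor-like membrane protein, was 0.71 ± 0.08 and 0.74 ± 0.08 higher in static orpk and at 2 dyn/cm2, and fell by 0.51 at 30 dyn/cm2 in orpk, where its difference from WT was 0.14 ± 0.08 (adjusted p = 0.12; -0.18 with library totals). Tmem216, another membrane protein of the gate, rose in WT by 0.39 ± 0.09 and 0.48 ± 0.09 at 2 and 30 dyn/cm2 (adjusted p = 0.00034 and 1.5e-05). Each of these 3 shares 5.15% to 7.58% of its exon length with a gene on the other strand. The MKS module genes thus gave rises (Cc2d2a, Tmem216) and falls (Tmem231, Tctn1, Tctn3) in WT at both shears.

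Cell cycle genes followed the same 3 orpk groups. Of 20 S and G2/M genes, 18 rose and 0 fell at 2 dyn/cm2 against static in orpk (30.9% and 31.1% of all tested genes), and 0 rose and 20 fell from 2 to 30 dyn/cm2 (32.1% and 31.5% of all). Their summed level was 2079 to 2257 CPM in static orpk, 4142 to 4234 at 2 and 2476 to 2685 CPM at 30 dyn/cm2, and 5670 to 6223 CPM in WT. Smooth muscle and pericyte markers summed to 1897 to 2034, 2191 to 2437 and 4385 to 4483 CPM in the same orpk groups. The part of either in the member changes was not tested.

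Over all members, the orpk change minus the WT change passed the interaction test as positive in 14 and as negative in 7 at 2 dyn/cm2 (27.1% and 25.4% of all genes), and in 12 and 19 at 30 dyn/cm2 (30.6% and 26.9% of all genes). In 7 members the calls at 30 dyn/cm2 against static were opposite in WT and orpk (Bbs5, Cc2d2a, Ift43, Ift140, Kifap3, Nphp4 and Tmem231), and in 4 of them (Cc2d2a, Ift43, Kifap3 and Tmem231) both calls held under every alternative. At 2 dyn/cm2 there were also 7, of which Tmem231, Tctn3 and B9d2 held. The share of all genes with opposite calls was not counted, so the number of such members is no result about the set.

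Other subunits of the same machines came from a list of genes that were not members. Of 16 tested IFT, motor and BBSome subunits, 9 were higher and 6 lower in orpk in static culture, near the 44.4% and 43.4% of all tested genes. Hspb11, the IFT25 subunit, was 1.63 ± 0.10 higher (edgeR, adjusted p = 7.6e-19). Ttc30a1, an IFT-B subunit of the IFT70 kind, had 0 reads in all WT groups and 3.29 ± 0.51 CPM (SD, n = 3) in static orpk, but it has near copies (Ttc30a2 and Ttc30b) between which reads may be split. Of 17 tested transition zone and inversin genes outside the set, 8 fell and 2 rose in WT at 30 dyn/cm2 against static, where 32.7% and 34.1% of all genes did. In orpk 4 of the 17 rose and 6 fell, against 36.5% and 33.3% of all genes.

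Leaving out 1 library at a time ended 66 of 340 member calls, none with a log2 fold change above 0.36 in size, and turned none.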

How the data were processed

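Poly(A) RNA of 18 libraries (stranded kit, single 50-nt reads, per the labels' protocols) was measured. The deposited values are whole-number read counts per gene made by the authors; per the submitters' processing notes the tools were CASAVA 1.8.2, STAR 2.4 and featureCounts 1.4.6 on GRCm38. Strand and multi-match settings of the counting are not given in the sources used here, and 10 members share exon bases with another gene. Gene names and exon lengths came from GENCODE on GRCm38, promoters from RefSeq.

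The analysis used edgeR 4.0.16 in R 4.3.3. Of 21647 genes, filterByExpr kept 13058, which were scaled by TMM and fitted with 6 group means by robust quasi-likelihood (12 residual degrees of freedom). Tests were quasi-likelihood F tests, Benjamini-Hochberg adjusted over all genes at 0.05 in each of 11 comparisons: 3 of shear per genotype, 3 of genotype, and 2 interactions. CPM are TMM-normalised, and SE is the log2 fold change over the root of F. The script was tested on simulated data.

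Alternatives were RLE factors, DESeq2 1.42.0, library totals, no filter, fits of the compared groups alone, no robust estimation, each library left out, replicate number as a block and, chosen after seeing the data, leaving out both libraries that stood apart. Members may all be named; per comparison and complex the up to 3 largest changes past the threshold, per interaction the up to 6 largest, and per other list up to 3 were to be given values. The text gives a selection of these, and further members chosen after their values were seen. The members and lists were chosen with earlier results of these data known.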

Additional observations from a re-analysis of the deposited data

Results flagged for a closer look

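For 12 results the change under flow differed between the genotypes by the interaction test of edgeR, given here as the orpk change minus the WT change on the log2 scale. At 2 dyn/cm2 against static these were Tmem231 at 1.54, Tctn3 at 1.37, Cc2d2a at -1.15, Nphp4 at 0.92, B9d2 at -0.68 and Rpgrip1l at 0.66. At 30 dyn/cm2 they were Tmem231 at 1.60, Cc2d2a at -1.39, Tctn3 at 1.22, Wdr35 at -0.81, Ift43 at 0.77 and B9d2 at -0.76. They are the 6 members with the largest such change at each shear, so their size is a result of that choice. Because cell makeup differed between the genotypes, a difference in the response to flow by genotype and one by cell makeup cannot be told apart.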

How the results depend on the processing

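Of 322 counts of called genes, 321 stayed within 1.5 times the main count. The exception was the count of members called in WT from 2 to 30 dyn/cm2, which was 11 and ran from 7 to 13 with 1 library left out, 7 of them without WT replicate 1 at 30 dyn/cm2. Among values called as reported or under the alternative, 13 changed sign, all with library totals as the scaling and in orpk against WT; values called in neither also changed sign, in flow comparisons and with other settings too. The 13 were: in static culture Arl6 (-0.0523); at 2 dyn/cm2 Arl6 (-0.14), Ift57 (-0.0275), Ift81 (-0.20), Kif3a (-0.12) and Tctn3 (-0.0093); at 30 dyn/cm2 Arl6 (-0.12), Bbs2 (-0.0701), Ift43 (-0.20), Kif3b (-0.24), Kifap3 (-0.20), Tctn3 (-0.25) and Tmem67 (-0.18). Of 340 member calls, library totals ended 39 without a change of sign, turned the sign of 7 others and added 39; DESeq2 ended 26, RLE factors 12, no filter 12, the compared groups alone 11 and the set without both libraries that stood apart 16, with 0 reversed in these. The cause was not tested. Replicate numbers did not pair the samples: deviations of same-numbered libraries correlated from -0.0524 to 0.055 over 45 pairs. With replicate number as a block 3 calls were lost and 1 gained, as for Kif3a in orpk against WT at 2 dyn/cm2 (0.0997, adjusted p = 0.0518 with edgeR); no count moved by over 1.5 times. Kif17, with at most 0.517 CPM, was too low to test.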

Other observations

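Genes of the ciliary base and of cilium disassembly differed by genotype with more genes lower than higher in orpk. Of 18 tested basal body and distal appendage genes, 4 were higher and 11 lower in static culture, where 44.4% and 43.4% of all genes were, and the sum of the 18 was 1222 to 1243 CPM in WT and 898 to 916 CPM in orpk. C2cd3, needed for centriole distal appendages, was -1.83 ± 0.05 and Ccp110, the cap of the mother centriole, -1.46 ± 0.05 (SE, log2; edgeR, adjusted p = 2.1e-30 and 1.9e-27). Of 13 tested disassembly and length control genes, 4 were higher and 9 lower. This list holds Aurka, Nek2 and Plk1, the last of which is also on the list of 20 cell cycle genes. The cell cycle genes summed to 6084 to 6223 CPM in static WT and 2079 to 2257 CPM in static orpk. The part of the cell cycle in these counts was not tested. Of the disassembly genes Hdac6, the tubulin deacetylase, stood at 625 to 668 CPM in static WT and at 94.8 to 99.8 CPM in static orpk, a change of -2.76 ± 0.04 (adjusted p = 5.2e-42). Rab3ip, the exchange factor that activates Rab8 at the cilium base, stood at 182 to 193 and at 16.0 to 17.1 CPM, a change of -3.49 ± 0.06 (adjusted p = 5.5e-39).

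Tubulin modification genes gave 1 rise and 6 falls of 11 in WT at 30 dyn/cm2 against static, where 34.1% of all tested genes rose and 32.7% fell. In orpk they gave 4 rises and 5 falls, against 36.5% and 33.3% of all genes. Atat1, the tubulin acetyltransferase, fell in both, by 0.63 ± 0.06 in WT and 0.74 ± 0.06 in orpk on the log2 scale (edgeR, adjusted p = 7.7e-13 and 5.3e-14). Ttll3, a tubulin glycylase, rose in orpk by 1.34 ± 0.11 at 2 and 1.17 ± 0.12 at 30 dyn/cm2.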
